A study of Mus musculus with 6 samples.

Results

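The 10 genes described here encode ligands and receptors of the PDGF, FGF and HGF families: Pdgfa, Pdgfb, Pdgfra, Pdgfrb, Fgf2, Fgf7, Fgfr1, Fgfr2, Hgf and Met. They were chosen by name, and all 10 were found among the 26532 genes of the deposited table through their Entrez gene numbers. The 6 RNA-seq libraries came from MEFs, fibroblasts cultured from mouse embryos. The 3 GFP libraries came from cells with a wild-type genotype label that carried an adenovirus with green fluorescent protein. In the 3 ORAI2 libraries the virus carried ORAI2, which forms calcium channels opened by store depletion, and the genotype label is overexpression. Both groups share the adenoviral vector and a label of osteogenic differentiation, and the cell type is labelled as mesenchymal stem cells. The sources used here do not say whether BMP9, which the series title names, was added to these cells. Culture time, and whether replicates are separate cultures, are likewise not stated, so p-values reflect only the spread between these libraries, which may be technical.

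All 3 receptor families are receptor tyrosine kinases: a ligand brings receptor chains together, the chains phosphorylate each other, and adaptor proteins pass the signal on to the RAS-ERK and PI3K-AKT pathways, both named in the series title. PDGFs drive growth and movement of mesenchymal cells. FGFs bind their receptors together with heparan sulphate, and HGF, made mainly by mesenchymal cells, acts through MET. In the skeleton, FGF receptors take part in osteoblast growth and maturation, and PDGF receptors mark many skeletal progenitor cells.

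The libraries were alike in depth, with total counts of 18526884 to 18844436 and counts in 19761 to 20038 genes. Orai2 was at 48.6 to 53.3 CPM (the count relative to the TMM-scaled library total) in GFP and at 2439 to 3652 CPM in ORAI2, which matches the labels. Of 13764 genes that passed the low-count filter, 42.9% differed at an adjusted p under 0.05 by edgeR's quasi-likelihood test after Benjamini-Hochberg adjustment: 20.8% of the tested genes were higher and 22.1% lower in ORAI2. Mesenchymal genes such as Col1a1 and Prrx1 were abundant, but levels of such markers were uneven. Thy1, a common fibroblast marker, was at or below 0.16 CPM in every library, and Fap was at most at 0.53 CPM. In GFP, Lum was at 2.07 CPM and Col1a2 at 13.5 CPM, against 1259 CPM for Col1a1.

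Of the 10 genes, 4 were lower in the ORAI2 libraries (Pdgfa, Pdgfra, Pdgfrb and Hgf), 1 was higher (Fgfr2) and 5 did not pass the test (Pdgfb, Fgf2, Fgf7, Fgfr1 and Met). That is 50% of the genes called, near the 42.9% of all tested genes. For 5 of the 10 the groups were apart (1 higher, 4 lower), against 52.9% of all tested genes (26.2% higher, 26.6% lower). The median log2 fold change was -0.01 over the 10 genes and -0.00 over all tested genes, and the median absolute value was 0.20 and 0.18. All 10 passed the low-count filter.

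**Figure D1:**
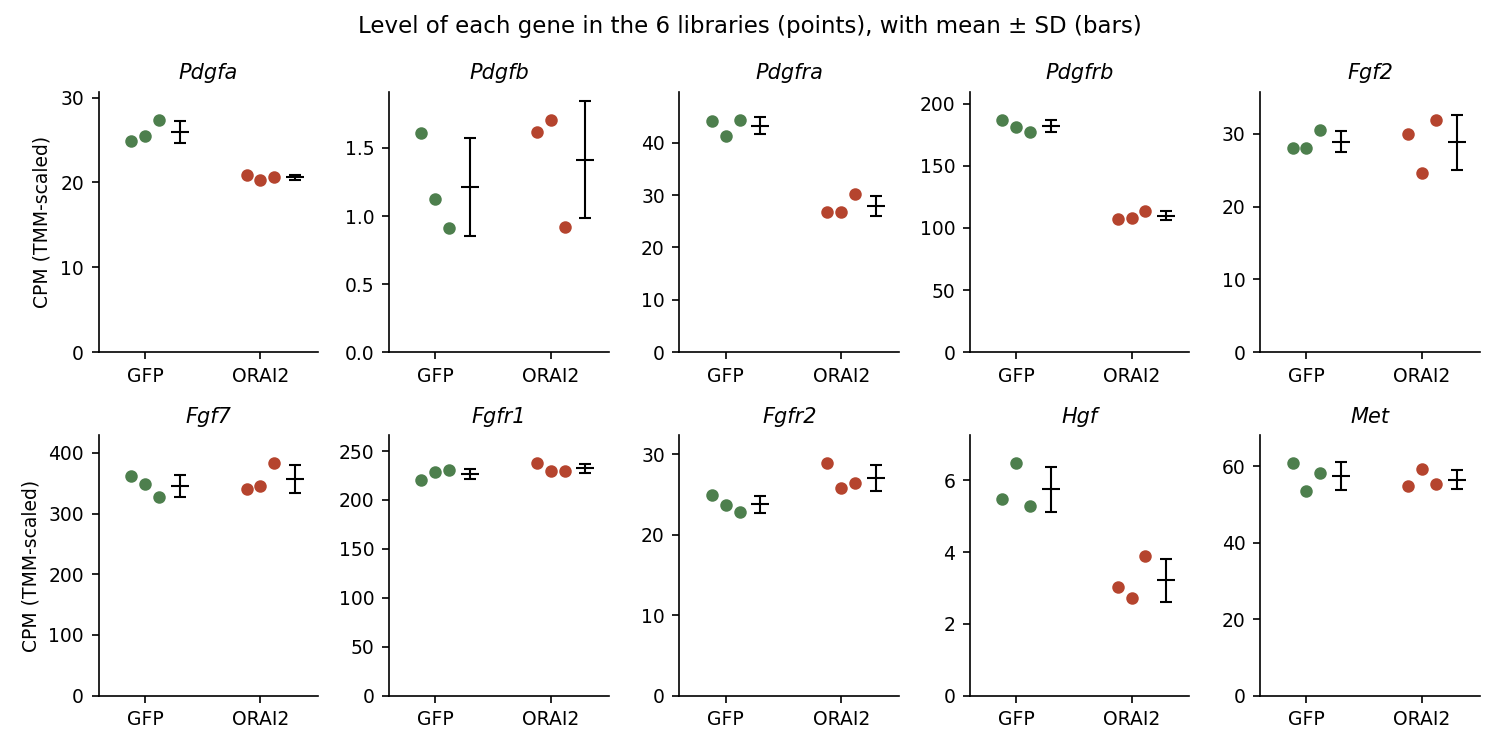
Level of each gene in CPM after TMM scaling (vertical axes from 0), with 1 point per library for the 3 GFP (green) and 3 ORAI2 (red) libraries and the mean ± SD beside them. The points of the groups are apart for Pdgfa, Pdgfra, Pdgfrb, Fgfr2 and Hgf and overlap for the others.

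The bases before the transcription start of 3 of the genes that fell are shown because these genes moved in the same direction. They come from RefSeq (GRCm38.p6), are given 5′ to 3′ on the gene's strand, and cover the 250 bases before the most upstream start listed. The promoter set used here held 7 of the 10 genes and lacked Pdgfrb, which also fell, as well as Pdgfb and Fgfr1. Capitals mark matches, on either strand, to any of 5 motifs that were searched: the GC box GGGCGG, the AP-1 site TGANTCA, the ETS core CCGGAA, the FOXO site GTAAACA and the TATA box TATAAA.
Pdgfra, chr5:75152001-75152250, plus strand: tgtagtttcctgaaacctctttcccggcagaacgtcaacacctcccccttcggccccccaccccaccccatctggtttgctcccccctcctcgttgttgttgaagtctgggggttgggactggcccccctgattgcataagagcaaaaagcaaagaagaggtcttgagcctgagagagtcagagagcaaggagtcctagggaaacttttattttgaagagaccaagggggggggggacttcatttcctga
Pdgfa, chr5:138994945-138995194, minus strand: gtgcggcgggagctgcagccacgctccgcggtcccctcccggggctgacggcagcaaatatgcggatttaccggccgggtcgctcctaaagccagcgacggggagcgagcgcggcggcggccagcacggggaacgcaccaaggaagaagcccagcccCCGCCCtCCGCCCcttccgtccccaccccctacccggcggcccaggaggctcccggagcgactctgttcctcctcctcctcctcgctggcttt
Hgf, chr5:16553245-16553494, plus strand: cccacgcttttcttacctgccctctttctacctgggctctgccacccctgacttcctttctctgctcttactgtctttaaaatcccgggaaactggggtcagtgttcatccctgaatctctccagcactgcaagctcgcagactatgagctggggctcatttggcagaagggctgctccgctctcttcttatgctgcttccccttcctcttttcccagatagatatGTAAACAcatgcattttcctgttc
The Pdgfra window held none of these letters, the Pdgfa window held 2 GC boxes (as CCGCCC on the strand shown), and the Hgf window held 1 FOXO site close to the start. Hgf and Pdgfa each have a second start listed, and the windows before those held no match for Hgf and 1 GC box for Pdgfa. No motif overlapped another in these windows. Over 32851 promoter windows of the same length, 32.7% held a GC box, 3.17% the FOXO site, 6.75% the AP-1 site, 12% the ETS core and 12.4% the TATA box. The windows were 54.4% G and C for Pdgfra, 72.4% for Pdgfa and 50.8% for Hgf, against a median of 52.4% over all windows. These 3 windows have no searched motif in common. A match is a description of the letters and not evidence of binding.

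Both PDGF receptors fell. Pdgfrb, the receptor that binds PDGF-B and PDGF-D most strongly, had counts of 3489, 3387 and 3323 in GFP and 2000, 2019 and 2109 in ORAI2. Each ORAI2 library lay well below each GFP library, and the libraries within a group were close to each other. The level went from 182 ± 4.77 to 110 ± 3.64 CPM (SD, n = 3 each), 1.66-fold lower (log2 fold change -0.73, SE 0.04, adjusted p = 3.08e-08, edgeR). Of all tested genes, 5.03% had a log2 fold change at least as low. In bulk RNA, fewer cells of a type and less RNA per cell cannot be told apart.

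Pdgfra, the receptor that also binds PDGF-A and marks mesenchymal progenitors, had counts of 822, 774 and 830 in GFP and 499, 503 and 559 in ORAI2. The groups were again apart, with the highest ORAI2 library still far under the lowest GFP library. The level went from 43.3 ± 1.65 to 28.0 ± 1.94 CPM, 1.55-fold lower (log2 fold change -0.63, SE 0.06, adjusted p = 4.35e-06, edgeR). The count of Pdgfra divided by that of Pdgfrb in the same library was 0.238 ± 0.0108 in GFP and 0.255 ± 0.0091 in ORAI2. A 2-sided exact permutation test of that ratio over the 6 libraries gave p = 0.30 (0.300 adjusted over the 3 ratios computed). With 3 against 3 this test cannot go below 0.1, so it cannot say whether the receptors fell unequally.

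Among the PDGF ligands, Pdgfa fell, with a smaller log2 fold change than the receptors, and Pdgfb did not pass the test. Pdgfa had counts of 465, 476 and 512 in GFP and 388, 381 and 383 in ORAI2. The groups did not overlap, and the ORAI2 libraries were nearly equal. The level went from 25.9 ± 1.29 to 20.6 ± 0.28 CPM, 1.26-fold lower (log2 fold change -0.33, SE 0.06, adjusted p = 0.0012, edgeR). The difference in size of fall between Pdgfa and the receptors was not tested. Exons of 6330403L08Rik, on the opposite strand, cover 26.1% of the annotated exon bases of Pdgfa. The labels do not say whether counting used strand, and without it reads from this pair cannot be told apart.

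Pdgfb, the ligand made mainly by endothelial cells and platelets, had counts of 30, 21 and 17 in GFP and 30, 32 and 17 in ORAI2. The groups overlapped. At 1.21 ± 0.36 and 1.41 ± 0.43 CPM it gave a log2 fold change of 0.22 with a 95% interval from -0.43 to 0.87 (adjusted p = 0.588, edgeR). A fall of Pdgfb as large as those of the receptors lay outside this interval, while a rise of that size did not.

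Neither FGF ligand passed the test. Fgf7, a growth factor that mesenchymal cells secrete and that acts on epithelial FGFR2, had the highest level per kilobase of the 10 genes. Its counts were 6741, 6518 and 6110 in GFP and 6347, 6477 and 7087 in ORAI2, and the groups overlapped. The level was 346 ± 17.6 and 357 ± 22.9 CPM (log2 fold change 0.05, 95% interval -0.06 to 0.15, adjusted p = 0.496, edgeR).

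Fgf2, a broadly acting FGF that is released without a signal peptide, had counts of 524, 526 and 572 in GFP and 558, 462 and 591 in ORAI2. The lowest and the highest library were both ORAI2 libraries. The level was 28.9 ± 1.43 and 28.9 ± 3.78 CPM (log2 fold change -0.00, 95% interval -0.19 to 0.18, adjusted p = 0.977, edgeR). Nudt6, on the opposite strand, shares 9.44% of the annotated exon bases of Fgf2 and had 48 to 92 counts in the table.

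Of the FGF receptors, Fgfr1 did not pass the test and Fgfr2 rose slightly. Fgfr1, the main FGF receptor of mesenchymal cells, had counts of 4111, 4280 and 4311 in GFP and 4413, 4305 and 4253 in ORAI2. The groups overlapped. The level was 227 ± 5.38 and 232 ± 4.47 CPM (log2 fold change 0.04, 95% interval -0.04 to 0.11, adjusted p = 0.442, edgeR). An increase or decrease of Fgfr1 as large as the fall of Pdgfrb lay outside this interval.

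Fgfr2, whose splice forms bind different FGFs and whose mesenchymal form serves in osteoblast maturation, had counts of 465, 444 and 427 in GFP and 537, 484 and 489 in ORAI2. All ORAI2 libraries were above all GFP libraries, by a small margin. The level went from 23.8 ± 1.06 to 27.0 ± 1.63 CPM, 1.13-fold higher (log2 fold change 0.18, SE 0.07, adjusted p = 0.0422, edgeR). This call was lost under 7 of 14 alternatives computed on the counts, among them DESeq2 (adjusted p = 0.110), upper quartile normalisation (0.0631) and no low-count filter (0.0713). It was also lost without GFP replicate 2 (adjusted p = 0.109) or GFP replicate 3 (0.128). Leaving out ORAI2 replicate 1 (0.143) or ORAI2 replicate 3 (0.0527) ended it as well. The table gives 1 count per gene, so the splice forms of Fgfr2 were not separated. Exons of Ctbp2, on the same strand, share 3.04% of the annotated exon bases of Fgfr2. Ctbp2 had counts of 1134, 1064 and 1076 in GFP and 1186, 1260 and 1170 in ORAI2. The part of this overlap in the Fgfr2 counts was not tested. The count of Fgfr2 divided by that of Fgfr1 was 0.105 ± 0.0072 in GFP and 0.116 ± 0.0048 in ORAI2 (exact permutation p = 0.20, 2-sided).

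Hgf fell while Met, its receptor, did not pass the test. Hgf, a secreted factor of mesenchymal cells, had counts of 102, 121 and 99 in GFP and 56, 51 and 72 in ORAI2. The lowest GFP library was above the highest ORAI2 library. The level went from 5.74 ± 0.63 to 3.21 ± 0.61 CPM, 1.79-fold lower (log2 fold change -0.84, SE 0.16, adjusted p = 9.83e-04, edgeR). Its point estimate was the largest fold change of the 10 genes, with an interval that overlaps that of Pdgfrb. At 322 counts over the GFP and 179 over the ORAI2 libraries it rested on few counts, and its 95% interval ran from -1.19 to -0.49. Of all tested genes, 3.71% had a log2 fold change at least as low. Exons of Gm43489, on the same strand, share 6.74% of the annotated exon bases of Hgf.

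Met had counts of 1133, 1001 and 1090 in GFP and 1019, 1114 and 1024 in ORAI2, and the groups overlapped. The level was 57.5 ± 3.68 and 56.5 ± 2.51 CPM (log2 fold change -0.03, 95% interval -0.14 to 0.09, adjusted p = 0.745, edgeR). The count of Hgf per count of Met was 0.101 ± 0.0176 in GFP and 0.0570 ± 0.0124 in ORAI2. Every GFP library was above every ORAI2 library in this ratio, and the exact permutation p was 0.10, the smallest that 3 against 3 allows (0.300 adjusted over the 3 ratios).

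**Figure D2:**
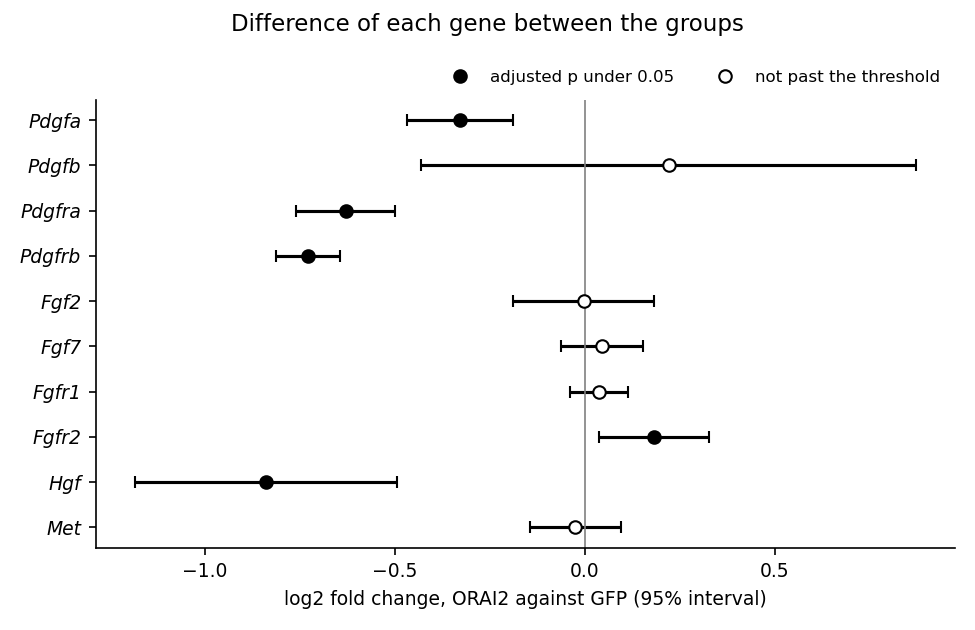
Log2 fold change of each of the 10 genes, ORAI2 against GFP, from the edgeR fit, with 95% intervals as bars. Filled points passed an adjusted p of 0.05: Pdgfa, Pdgfra, Pdgfrb and Hgf lie below 0, Fgfr2 lies just above 0, and Pdgfb has the widest interval, from -0.43 to 0.87.

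Levels of different genes were compared per kilobase of the longest annotated transcript. In the GFP libraries the order was Fgf7 with 129 ± 6.58 CPM per kilobase, Fgfr1 with 44.9 ± 1.07, Pdgfrb with 33.5 ± 0.88, Pdgfa with 12.6 ± 0.62 and Met with 8.45 ± 0.54. Then followed Pdgfra with 6.33 ± 0.24 CPM per kilobase, Fgfr2 with 5.38 ± 0.24, Fgf2 with 4.84 ± 0.24, Hgf with 1.66 ± 0.18 and Pdgfb with 0.41 ± 0.12. Neighbours in this order did not overlap between their 3 libraries. In the ORAI2 libraries Pdgfra, at 4.09 ± 0.28 CPM per kilobase, came after Fgfr2 and Fgf2, and its libraries overlapped those of Fgf2. Fgf7 and Fgfr1 led, and Hgf and Pdgfb were last, in both groups and with the median transcript length as well. The middle of the order depended on the length used: with the median transcript length Fgf2 was at 57.2 CPM per kilobase in GFP and came after Fgf7 and Fgfr1. The median annotated Fgf2 transcript has 505.5 bases and the longest 5973.

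**Figure D3:**
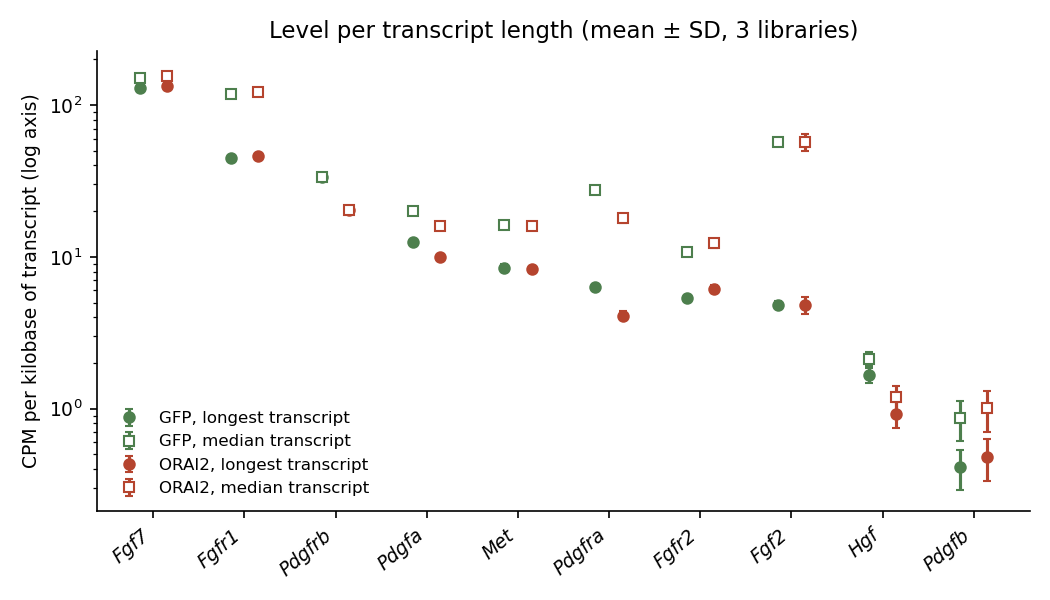
CPM per kilobase of transcript on a log axis, mean ± SD of 3 libraries, for GFP (green) and ORAI2 (red), with the longest transcript (circles) or the median transcript length (squares). Fgf7 is highest at 129 and Pdgfb lowest at 0.41 CPM per kilobase in GFP with the longest transcript, and Fgf2 moves most between the length choices.

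A wider set of 98 pathway genes was taken by known role, in 9 lists. The table held 88 of them and 67 passed the low-count filter, of which 20 rose, 22 fell and 25 did not pass. That is 62.7% called, against 42.9% of all tested genes (20.8% higher, 22.1% lower). The counts per list below stand against the same shares. The median log2 fold change of the 67 genes was 0.05. The 21 genes under the filter had at most 15 counts in any library, among them Fgfr4 and 10 further FGF ligands. The lists were made with earlier results of these data known, so the larger share is not independent evidence. It is also not matched for level: of genes with at least 5 CPM in 3 libraries, 51.4% were called.

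Of 6 tested PDGF family ligands beside the members, a family that includes the VEGFs, 3 fell and 3 did not pass. Vegfd, a lymphatic growth factor, was at 21.9 ± 1.81 CPM in GFP and 12.9 ± 0.78 CPM in ORAI2, or 1.70-fold lower (edgeR adjusted p = 1.40e-05). Pdgfc, also a ligand of PDGFRA, had counts of 243, 240 and 242 in GFP and 211, 187 and 188 in ORAI2. It was 1.23-fold lower (adjusted p = 0.0119), a call lost with DESeq2 (adjusted p = 0.0558) and without ORAI2 replicate 2 (0.0517). Vegfa, the main angiogenic factor, fell by 0.13 on the log2 scale, a call lost without GFP replicate 3 (adjusted p = 0.0655) or ORAI2 replicate 1 (0.0899). Pdgfrl, which encodes a PDGF receptor-like protein without a kinase domain, had counts of 183, 171 and 163 in GFP and 62, 83 and 61 in ORAI2. Its level of 9.22 ± 0.55 CPM in GFP was 2.50-fold that of ORAI2, 3.69 ± 0.64 CPM (edgeR adjusted p = 5.37e-06).

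Of 20 other FGF ligands listed, only Fgf10 and Fgf21 passed the filter. Fgf21, an endocrine FGF of metabolism and stress, was at 3.67 ± 0.32 CPM in GFP and 2.49 ± 0.26 CPM in ORAI2, a 1.48-fold fall (edgeR adjusted p = 0.0135). DESeq2 did not call Fgf21 (adjusted p = 0.0625), nor did edgeR without GFP replicate 2 (0.0533) or ORAI2 replicate 1 (0.0595). Fgf10, a mesenchymal ligand of FGFR2 like Fgf7, was at 26.9 ± 2.60 and 29.7 ± 5.81 CPM (adjusted p = 0.356).

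Among 4 tested FGF receptors and co-receptors beside the members, 3 rose and 1, Fgfbp3, did not pass. Fgfr3, the receptor that restrains cartilage growth, had counts of 51, 68 and 57 in GFP and 92, 96 and 83 in ORAI2. It was 1.54-fold higher (adjusted p = 0.0046, edgeR). Fgfrl1, a receptor without a kinase domain, was 1.24-fold higher, at 11.3 ± 0.13 CPM in GFP and 14.1 ± 0.99 CPM in ORAI2 (adjusted p = 0.0089). Klb, the co-receptor of endocrine FGFs, named after its values were seen, had counts of 9, 12 and 7 in GFP and 31, 25 and 24 in ORAI2. It was 2.84-fold higher (adjusted p = 0.0012) from only 0.50 ± 0.13 CPM. Klb passed the low-count filter through the ORAI2 libraries, the group in which it was higher. Its place among the 3 genes that rose therefore depends partly on that filter.

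Of 6 tested proteases and inhibitors that control activation of HGF or PDGFs, 1 rose, 1 fell and 4 did not pass. Furin, which cleaves the precursors of PDGF-A and PDGF-B, was 1.17-fold higher (adjusted p = 0.0090). Plat, tissue plasminogen activator, which activates PDGF-C, was 1.17-fold lower (adjusted p = 0.0068). Hgfac, which encodes the circulating HGF activator, had no count in any library.

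Heparan sulphate genes have products that hold FGFs and HGF at the cell surface. Of 13 tested, 2 rose and 6 fell (20.8% and 22.1% of all tested genes did), and 5 did not pass. The carriers Sdc2 and Gpc1 were 1.52-fold and 1.44-fold lower, from 230 ± 12.5 to 151 ± 4.59 CPM and from 160 ± 13.3 to 111 ± 2.44 CPM (adjusted p = 4.31e-07 and 6.91e-06, edgeR). Sulf1, an enzyme that removes sulphate groups from heparan sulphate outside the cell, was 1.58-fold lower (adjusted p = 1.44e-05). Sdc1, Sdc4 and Hs6st1 also fell, by 0.39, 0.20 and 0.19 on the log2 scale. The genes that rose were Ext1 and Ndst1, enzymes that build and modify the chain, with log2 fold changes of 0.26 and 0.15 (edgeR adjusted p = 0.0013 and 0.0035).

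Of 16 adaptors and signal relays, 5 rose, 5 fell and 6 did not pass. Sos2, an exchange factor that activates RAS, was at 64.9 ± 1.70 CPM in GFP and rose 1.34-fold to 87.2 ± 2.49 CPM (edgeR adjusted p = 4.92e-06), and the kinase Src rose 1.26-fold. Gab1, the main docking protein of MET, was 1.33-fold lower (adjusted p = 4.46e-05), and Gab2 rose 1.18-fold, a call lost with DESeq2 (adjusted p = 0.0669) and without GFP replicate 2 or ORAI2 replicate 1 (0.0631 and 0.0563). Stat3, a transcription factor activated by receptor kinases, fell by 0.21 on the log2 scale (adjusted p = 4.08e-04). Nck1, an adaptor that links receptors to actin, fell by 0.17 (adjusted p = 0.0367), a call lost in 6 of 14 alternatives on the counts. These were DESeq2 (adjusted p = 0.104), no low-count filter (0.0575), and leaving out GFP replicate 2 (0.0710) or 3 (0.143), or ORAI2 replicate 1 (0.140) or 2 (0.0911).

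Of 9 genes of receptor removal and dephosphorylation, 2 rose, 4 fell and 3 did not pass. Lrig1, a membrane protein that promotes removal of receptor tyrosine kinases, was at 136 ± 6.48 CPM in GFP and 190 ± 1.55 CPM in ORAI2 (log2 fold change 0.48, edgeR adjusted p = 1.13e-06). Ndfip1, an activator of ubiquitin ligases, rose by 0.10 on the log2 scale (adjusted p = 0.0373), a call lost in 7 of 14 alternatives on the counts. Among these were leaving out GFP replicate 1 (0.143) or 2 (0.0741), or ORAI2 replicate 2 (0.0985) or 3 (0.0809). Grb10, an adaptor that restrains receptor signalling, and Cblb, a ubiquitin ligase, were both 1.41-fold lower (edgeR adjusted p = 4.70e-07 and 3.93e-04). Ptpn1, a phosphatase that acts on receptor tyrosine kinases, was 1.28-fold lower. Cbl, the ubiquitin ligase that acts on PDGF receptors and MET, differed by -0.02 on the log2 scale (adjusted p = 0.795).

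Of 10 feedback inhibitors and targets of FGF signalling, 7 rose, 1 fell and 2 did not pass, against 20.8% of all tested genes higher and 22.1% lower. The median log2 fold change of this list was 0.64. Whether FGF signalling itself differed was not tested. Etv4, a transcription factor induced by FGF, had counts of 347, 360 and 320 in GFP and 640, 636 and 638 in ORAI2. It was 1.87-fold higher (adjusted p = 2.73e-07, edgeR), and the ORAI2 libraries were almost equal. Its relative Etv5 and the inhibitor Spry4 had log2 fold changes of 0.92 and 0.97. The gene of this list that fell, Il17rd, encodes an inhibitor of FGF signalling and was 1.56-fold lower, with 20.6 ± 2.35 CPM in GFP and 13.2 ± 0.86 CPM in ORAI2 (adjusted p = 1.44e-04). Spry1 was at about 1 CPM in GFP and did not pass (adjusted p = 0.116), and Spred1 differed by 0.11 on the log2 scale (adjusted p = 0.0630).

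**Figure D4:**
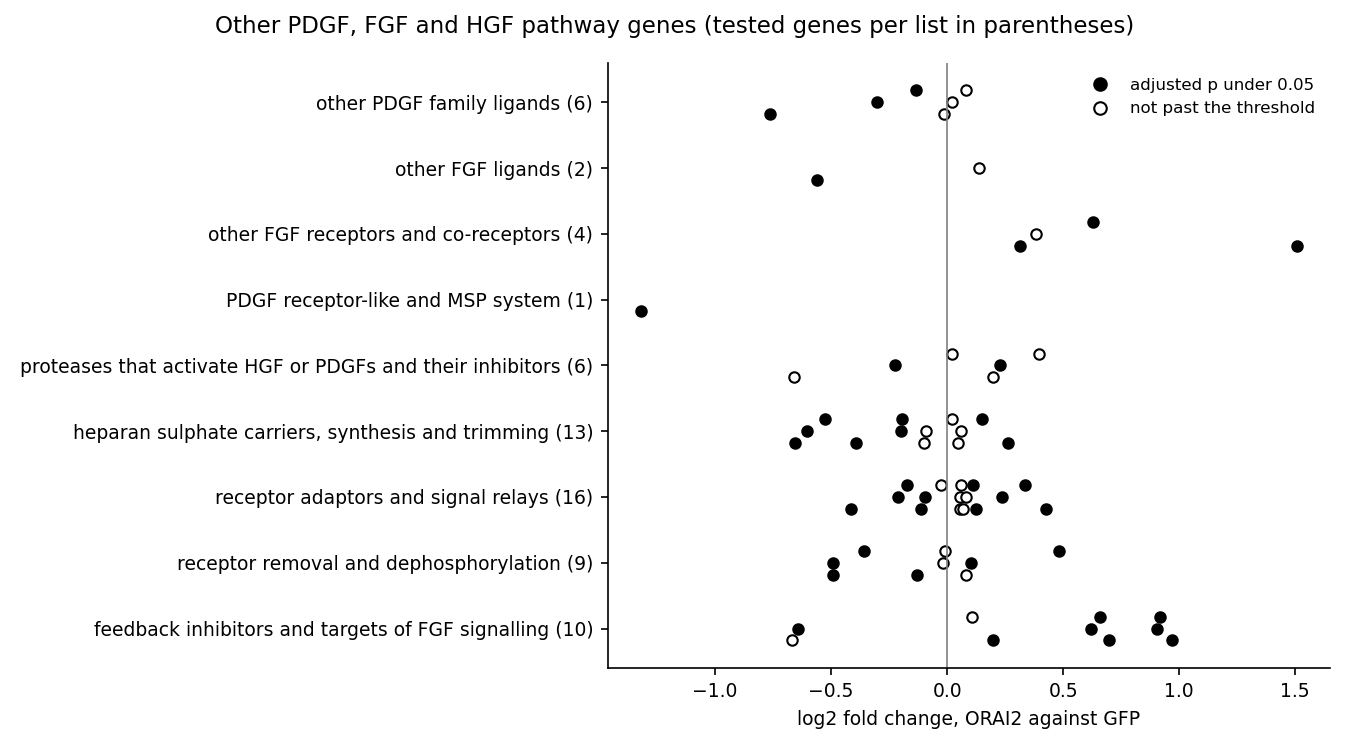
Log2 fold change, ORAI2 against GFP, of the 67 tested pathway genes beside the 10 members, 1 point per gene and 1 row per list, filled where the adjusted p was under 0.05. Points on both sides of 0 are seen in most lists. In the list of FGF feedback inhibitors and targets, 7 of 10 genes are filled and above 0, against 20.8% of all tested genes.

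Sums of cell type markers were lower in ORAI2 for fibroblasts and macrophages and higher for endothelial and epithelial cells. Those for smooth muscle and pericytes overlapped. Of 13 fibroblast and mesenchymal markers 11 were tested, of which 10 fell and 1 rose, against 22.1% of all tested genes lower and 20.8% higher. The 13 markers summed to 8121 to 8656 CPM in GFP and 6501 to 7052 CPM in ORAI2. Most of this sum was Fn1, at 5786 CPM in GFP and 5172 CPM in ORAI2, and Col1a1, at 1259 and 485 CPM. The PDGF receptors and Hgf, which fell, are also typical of such cells. So are Fgf7 (346 CPM in GFP, 357 CPM in ORAI2), Fgfr1 (227 and 232 CPM) and Fgf10 (26.9 and 29.7 CPM). These did not pass the test. Of 8 macrophage markers 6 were in the table, and their sum was 51.9 to 56.1 CPM in GFP and 26.6 to 36.0 CPM in ORAI2, most of it Cd14 and Mpeg1. Ptprc, a marker of all leukocytes, and Csf1r, a receptor of macrophages, were at most at 0.21 CPM. Of 8 endothelial markers 7 were in the table, with sums of 6.47 to 8.82 and 16.3 to 17.6 CPM, most of it Kdr and Vwf. Among them Emcn had no count, Cdh5 was at most at 0.16 CPM and Pecam1 at most at 0.37 CPM. All 8 epithelial markers were in the table, summing to 2.89 to 3.85 and 4.32 to 5.22 CPM, with Epcam at 0. Of 2 tested, Grhl2 was 4.68-fold higher, from only 0.50 ± 0.19 CPM in GFP. Its counts were 9, 13 and 6 in GFP and 52, 50 and 30 in ORAI2, so it passed the low-count filter through the ORAI2 libraries. All 9 smooth muscle and pericyte markers summed to 122 to 137 CPM in GFP and 114 to 125 CPM in ORAI2, most of it Cspg4, with Acta2 at most at 0.38 CPM. Of 4 tested, Tagln was 2.85-fold higher and Notch3 2.12-fold lower. The part of these markers in the falls of Pdgfra, Pdgfrb and Hgf was not tested.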

How the data were processed

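The 6 libraries were made with TRIzol, oligo(dT) beads, fragmentation and random-hexamer cDNA, per the labels' protocols. The tools named in the submitters' processing notes are HISAT2 (2.0.4) and Salmon (1.4.0), with build GRCm39. What each did, which annotation served and how strand was handled is not stated there. The authors deposited, per gene and library, an integer count and a TPM value. Whether the counts are reads or rounded estimates is not stated either.

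Symbols came from a RefSeq table of GRCm38.p6, which matched 25631 of 26532 genes (96.6%). Counts were tested with edgeR 4.0.16 (R 4.3.3) as deposited, with TMM scaling, filterByExpr with a minimum count of 10, and group as the only term. Genes were called at a Benjamini-Hochberg adjusted p of 0.05 over 13764 genes. Standard errors and 95% intervals derive from the F statistic. Transcript lengths came from GENCODE annotation of GRCm38. The deposited TPM columns entered no main result: their deviations from the gene mean correlated at 0.08 to 0.66 with the count column of the same name over 10036 genes, and each correlated better with another count column of its own group (0.18 to 0.81). The number in a TPM column's name therefore need not name the library of the same count column. The TPM column named ORAI2-3 followed no count column closely: its best correlation was 0.18, against 0.46 to 0.81 for the other columns. The edgeR step was also run on simulated counts with known changes. Within a group, no 2 libraries agreed within sampling noise (chi-square per gene 2.62 to 4.75).

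The members and lists were chosen with earlier results of these data known. Named were Orai2, all 10 members and, per other list and direction, the 3 called genes of largest fold change whose groups were apart and whose mean reached 1 CPM. Others were named after their values were seen. Alternatives were other normalisations, filters, DESeq2 1.42.0, limma 3.58.1 (voom, and on log2 TPM with a pseudocount of 1 or 0.1), the replicate block, and each library left out.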

Additional observations from a re-analysis of the deposited data

Results flagged for a closer look

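The TPM columns, which the comparisons do not use, held an Orai2 signal above the control columns in 2 of the 3 columns named ORAI2. Orai2 was at 1429.50 TPM (column ORAI2-1) and 1241.34 TPM (column ORAI2-2), while the 3 GFP columns listed 24.83, 24.86 and 38.19 TPM. The column named ORAI2-3 gave 36.33 TPM for Orai2, within the range of the GFP columns. The cause was not tested. Pdgfrb was at 39.41 and 41.64 TPM in the columns named ORAI2-1 and ORAI2-2 and at 69.27 TPM in that named ORAI2-3, against 65.88 to 104.96 TPM in the columns named GFP.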

How the results depend on the processing

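On the counts, Pdgfa, Pdgfra, Pdgfrb and Hgf stayed lower and called under each of 14 alternatives, which include each library left out in turn. Their adjusted p was at most 0.0066, 5.36e-05, 6.75e-07 and 0.0069. Leaving out 1 library gave 4943 to 5661 genes called, 4 members lower and 0 to 1 members higher. Of all tested genes, 18.3% to 21% were then lower and 16.8% to 19.6% higher. The higher member, Fgfr2, was not called with upper quartile normalisation, no low-count filter or DESeq2, so 0 members were higher there (18.7%, 10.7% and 17.3% of all tested genes were), though 1 had an unadjusted p under 0.05 in each. Log2 fold changes near 0 changed sign without a call when 1 library was left out: Fgf2 ranged from -0.0766 to 0.1034, being above 0 without GFP replicate 3 (0.0368) and ORAI2 replicate 2. Fgf7 ranged from -0.0027 (without ORAI2 replicate 3) to 0.0805, and Met from -0.0755 to 0.0153, above 0 without GFP replicate 1 and ORAI2 replicate 1 (0.0013). With at least 5 CPM in 3 libraries, Pdgfb was not tested.

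The deposited TPM columns gave other values. With limma, 22, 21 and 24 genes were called (pseudocount 1, pseudocount 0.1, and no filter), or 0.17%, 0.162% and 0.0971% of those tested. Beside these shares, 0 members were higher and 0 lower, also at an unadjusted p under 0.05. Pathway genes called were 1, 1 and 0. Under these 3 settings Fgfr2 was at -0.26, -0.29 and -0.26, Vegfa at 0.0274, 0.0276 and 0.0274, and Fgf21 at 0.34, 0.52 and 0.34. In the columns numbered 1 and 2, an alternative chosen after seeing the data, 2339 genes, 0 members higher, 2 members lower (Pdgfa and Pdgfrb) and 19 pathway genes were called. There, 6.97% of all tested genes were higher and 11.1% lower. Fgf2 was at 0.0533, Fgfr1 at -0.0329 and Met at 0.0386 there. At an unadjusted limma p under 0.05, 0 members were higher and 4 lower. The share of all genes at that unadjusted p was not computed. The cause was not tested.

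The replicate block called 6246 genes, with 1 member higher and 4 lower (22.1% and 23.2% of all tested genes were). It changed no call of a member. Leaving out 1 library left 34 to 40 pathway genes called. Deviations of same-numbered libraries correlated at 0.245, 0.090 and 0.255, and each library correlated best with its own number, a hint from the data and not the design. Because the deviations are taken from the group means, the correlations of a library cannot all be negative. The match by number was not tested. Depth limits Pdgfb most, at 17 to 32 counts per library, and Hgf next, at 51 to 121.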
